A study of Mus musculus with 9 samples.

Results

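The BCL2 family decides at the mitochondrial outer membrane whether a cell under stress lives or dies, and 10 of its genes were taken as members by their exact platform gene symbol: the survival genes Bcl2, Bcl2l1, Bcl2l2 and Mcl1, and the death genes Bcl2l11, Bmf, Bid, Bad, Bax and Bak1. In the table used here 9 of the 10 had a probe set of their own, 34 probe sets in all of the 45037 tested, and Bax was not analysed here. The arrays came from 4 spleens of healthy wild-type mice and 5 splenic lymphomas of mice with a Sca1-MALT1 transgene, whole frozen tissue, 1 Affymetrix array per sample. MALT1 is a protease and scaffold that carries antigen receptor signals to NF-kB, and the Sca1 promoter is known for activity in blood stem and progenitor cells. The labels name no strain, age or animal for any sample, so p-values measure only the spread between these samples, and the number of arrays limits the precision.

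Survival proteins of the family hold the pore-forming proteins BAX and BAK in check. BH3-only proteins such as BIM (gene Bcl2l11), BMF, BID and BAD carry stress signals, either by occupying the groove of the survival proteins or by activating BAX and BAK directly. Once BAX and BAK open the membrane, cytochrome c leaves the mitochondrion and caspases start to cut the cell apart. BCL2 overexpression is the classic survival lesion of follicular lymphoma, BCL-XL (gene Bcl2l1) keeps maturing red cell precursors alive and is a known NF-kB target, and BIM removes self-reactive and surplus lymphocytes.

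Lymphomas 1 and 2 stand apart from the other arrays, with the highest erythroid, dividing-cell and (lymphoma 1) neutrophil markers and the lowest T-cell markers, so results are also given without them. B-cell markers had mean log2 levels of 11.34 to 12.50 over the 9 arrays, and all 6 measured had a lower mean in lymphoma (median difference -0.43, 2 with an unadjusted limma p under 0.05, 0 called). All 6 plasma-cell markers had a higher mean in lymphoma (median difference 0.52, 2 with an unadjusted limma p under 0.05, 0 called). All 5 lymphomas had higher macrophage markers than wild-type, a mean log2 level of 10.88 to 11.46 over the 7 markers against 9.72 to 9.96, and 4 of the 7 passed the test. The part of these cell types in the results that follow was not tested.

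None of the measured members passed the test between lymphoma and wild-type spleen. Bcl2l1 stood highest relative to wild-type, at 1.72-fold, and Bmf lowest, at 1.80-fold below wild-type, each with wide spread among the lymphomas. Bcl2, Bcl2l2, Mcl1, Bcl2l11, Bad and Bak1 lay within a log2 difference of -0.22 to 0.17, and Bid at -0.34. Limma called 0 of 9 members at a Benjamini-Hochberg adjusted p under 0.05, where it called 130 of all 18193 genes (0.715%), and 2 of the 9 had an unadjusted p under 0.05, against 14.7% of all genes. An unequal-variance test called 0 genes of any kind and had 0 of the 9 at an unadjusted p under 0.05, against 13.1% of all genes.

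The promoters of Bcl2l1 and Bmf are shown because these 2 genes carry the largest differences in either direction. Each line gives the 250 bases before a transcript start, on the gene's own strand, from RefSeq at build GRCm38.p6, with motif matches in capitals. For Bcl2l1 the windows of 2 of its 3 starts are shown, those with a match, and for Bmf that of its outermost start.
Bcl2l1, chr2:152828490-152828739, minus strand: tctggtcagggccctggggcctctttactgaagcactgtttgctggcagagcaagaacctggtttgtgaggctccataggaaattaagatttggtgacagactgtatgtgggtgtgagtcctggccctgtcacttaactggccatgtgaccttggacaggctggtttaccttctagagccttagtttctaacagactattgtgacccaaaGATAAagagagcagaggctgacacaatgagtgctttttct
Bcl2l1, chr2:152830718-152830967, minus strand: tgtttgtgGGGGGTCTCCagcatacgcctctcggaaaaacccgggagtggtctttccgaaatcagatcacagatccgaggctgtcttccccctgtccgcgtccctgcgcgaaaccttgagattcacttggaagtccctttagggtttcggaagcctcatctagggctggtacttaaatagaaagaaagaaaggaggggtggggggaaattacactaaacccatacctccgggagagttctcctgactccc
Bmf, chr2:118549687-118549936, minus strand: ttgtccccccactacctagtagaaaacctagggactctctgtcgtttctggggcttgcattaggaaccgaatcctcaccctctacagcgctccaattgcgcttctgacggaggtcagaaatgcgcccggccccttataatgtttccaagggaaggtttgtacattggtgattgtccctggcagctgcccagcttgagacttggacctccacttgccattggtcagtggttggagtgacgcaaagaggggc

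The first Bcl2l1 window holds GATAA, the core bound by erythroid and other GATA factors, at 40 to 36 bases before the start. The second holds a match to the NF-kB consensus at 242 to 233 bases before the start. Both strands were searched for these motifs and for those of STAT (TTCNNNGAA), FOXO (GTAAACA), SP1 (GGGCGG) and the E-box (CACGTG). None of the motif definitions contains another, and all were chosen after the values were known. Over the 16 windows of the 10 genes, GATAA was in 1 window, the NF-kB consensus in 1, both of Bcl2l1, and the FOXO motif in 1, of Bcl2l11. Of all 32851 promoter windows of that length, 22.6% held GATAA, 7.25% the NF-kB consensus and 3.17% the FOXO motif. The SP1 motif was in 8 of the 16 windows, from 7 genes, against 32.7% of all windows, and the STAT motif in 0 against 7.02%. The E-box was in 1 window, that of Bax, against 6.02%. No motif searched was in the 3 windows of Bmf. These matches describe letters in the windows and show nothing of binding.

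Among the survival genes Bcl2l1 differed most. Its bright probe set had log2 levels of 9.71, 9.37, 9.36 and 9.60 in wild-type spleens 1 to 4. In lymphomas 1 to 5 the levels were 11.53, 10.56, 9.96, 9.66 and 9.78. Lymphomas 1 and 2 stood far above the rest, lymphomas 3 and 5 just above the highest wild-type spleen, and lymphoma 4 inside the wild-type range, so the groups overlapped. The means were 10.30 ± 0.772 (SD, n = 5) and 9.51 ± 0.173 (SD, n = 4), a log2 difference of 0.79 with a 95% interval of 0.0095 to 1.56 and a limma adjusted p of 0.334. The exact two-sided permutation test over all 126 ways to assign the arrays gave p = 0.0556, where the smallest it can give is 0.00794. Without lymphoma 1 the difference was 0.48 and without lymphomas 1 and 2 it was 0.29 (limma adjusted p 0.227).

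The other 3 Bcl2l1 probe sets were dim, with mean log2 levels of 4.61 to 5.32 over all arrays, and differed by -0.13 to 0.072. RMA, the method behind the values, compresses differences near the background, and the transcript forms that these probe sets read are not known here. The mean of all 4 probe sets differed by 0.18. The reading for Bcl2l1 therefore rests on 1 probe set.

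Markers of red cell precursors differed among the same arrays, while 0 of the 9 measured had an unadjusted limma p under 0.05 between the groups. The mean log2 level of 9 of 10 erythroid markers measured (such as Klf1, Epor, Alas2 and Slc4a1) was 11.76 in lymphoma 1, 11.32 in lymphoma 2, 8.46, 6.26 and 7.64 in the other lymphomas, and 6.77 to 8.51 in the wild-type spleens. The 8 neutrophil and precursor markers ranged from 7.21 to 13.29 in lymphoma, highest in lymphoma 1, and from 6.88 to 7.61 in wild-type. With the erythroid score of each array as a covariate the Bcl2l1 difference was 0.24 (limma adjusted p 0.590). With a dividing-cell score in its place the Bcl2l1 difference was 0.61 (limma adjusted p 0.134). In whole tissue, fewer or more cells of a type and less or more RNA per cell cannot be told apart.

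Bcl2, the founding survival gene, did not separate the groups. On its brightest probe set lymphomas 1 and 5 lay below every wild-type spleen, lymphoma 4 just above them and lymphomas 2 and 3 among them. The log2 levels were 12.75, 12.83, 12.64 and 12.54 in the wild-type spleens and 11.67, 12.66, 12.71, 12.88 and 12.43 in lymphomas 1 to 5. Lymphoma 1 was the lowest of the 9 arrays on all 5 Bcl2 probe sets, and lymphoma 2 the highest on 4 of them. The difference was -0.22, with a 95% interval of -0.71 to 0.27 and a limma adjusted p of 0.686, and -0.020 without lymphoma 1. The other 4 probe sets differed by -0.095 to 0.10. Beside this, the mean level of 6 of 7 B-cell markers measured (such as Cd79a, Cd79b and Ms4a1) was lowest in lymphoma 1, at 11.34, against 12.05 to 12.50 in the other lymphomas and 12.36 to 12.49 in wild-type. Whether the B-cell share sets the Bcl2 level was not tested.

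Mcl1 encodes a short-lived survival protein that lymphocytes and granulocytes need. Its log2 levels were 13.91, 13.84, 13.77 and 13.82 in wild-type and 13.71, 14.09, 13.80, 13.76 and 13.79 in lymphomas 1 to 5. Lymphoma 2 was the highest of the 9 arrays on all 6 Mcl1 probe sets, while lymphomas 1 and 4 lay just below every wild-type spleen. The difference was -0.0040 with a 95% interval of -0.20 to 0.19 (limma adjusted p 0.988), and the 6 probe sets differed by -0.063 to 0.076. Bcl2l2, which encodes the survival protein BCL-W, ranged from 8.88 to 8.92 in wild-type and from 8.78 to 9.18 in lymphoma. Its difference was 0.011, with a 95% interval of -0.19 to 0.21 and a limma adjusted p of 0.969. Intervals of other probe sets were wider, reaching -0.45 to 0.60 for Mcl1 and -0.53 to 0.12 for Bcl2l2.

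**Figure D1:**
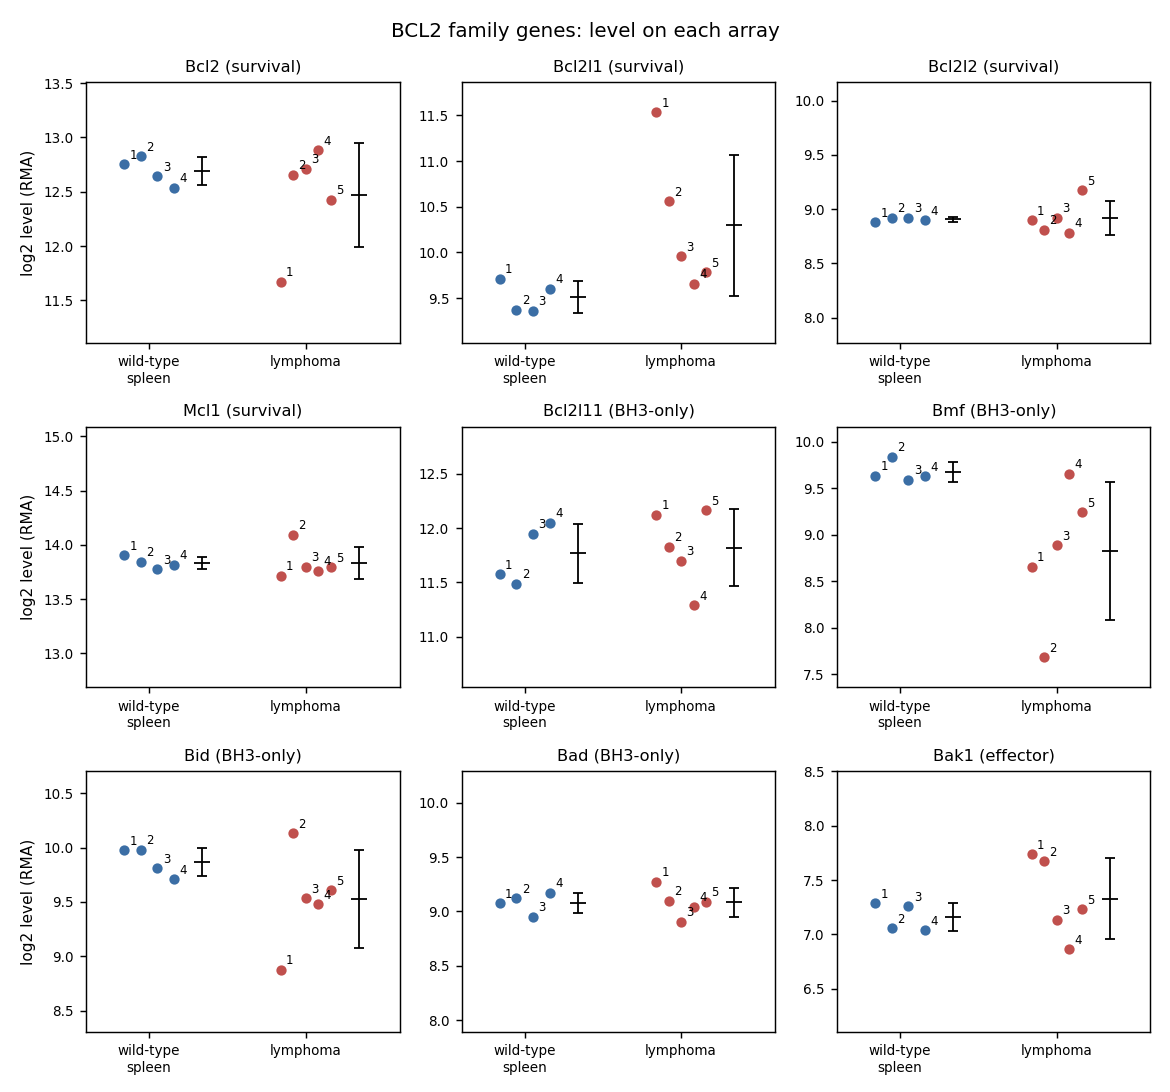
Log2 level (y axis, RMA) of each of the 9 measured members in 4 wild-type spleens (blue) and 5 lymphomas (red). Points are arrays with their replicate number, and bars beside them are the group mean ± SD. Lymphomas 1 and 2 lie high for Bcl2l1, at 11.53 and 10.56, lymphoma 1 low for Bcl2, at 11.67, and 4 of 5 lymphomas below all wild-type spleens for Bmf and Bid.

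Among the BH3-only death genes Bmf differed most. BMF is a BH3-only protein tied to the cytoskeleton by dynein light chains. Its bright probe set had log2 levels of 9.63, 9.84, 9.59 and 9.63 in the wild-type spleens. In lymphomas 1 to 5 it had 8.66, 7.68, 8.89, 9.66 and 9.24. Lymphoma 4 lay within the wild-type range and the other 4 below it, lymphoma 2 the furthest. The means were 8.82 ± 0.742 (SD, n = 5) and 9.67 ± 0.111 (SD, n = 4), a log2 difference of -0.85 with a 95% interval of -1.59 to -0.11, a limma adjusted p of 0.277 and an exact two-sided permutation p of 0.0714. Without lymphoma 2 the difference was -0.56, and without lymphomas 1 and 2 it was -0.41.

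The Bmf reading also rests on 1 probe set, whose ID marks it as one that may match several transcripts. The other 2 Bmf probe sets, with mean levels of 5.44 and 7.17, differed by -0.11 and -0.12. The mean of all 3 differed by -0.36. T-cell markers were lowest in lymphomas 1 and 2, the arrays with the lowest Bmf, though not in the same order. The mean level of 6 of 7 markers measured (such as Cd3d and Cd8a) was 8.72 in lymphoma 1 and 8.76 in lymphoma 2. It was 10.20, 9.78 and 9.84 in lymphomas 3 to 5 and 10.08 to 10.29 in wild-type. Lymphoma 3 had T-cell markers within the wild-type range with Bmf below it. Lymphoma 4 had T-cell markers below the wild-type range with Bmf within it. With the erythroid score as a covariate the Bmf difference was -0.39, and with the dividing-cell score -0.69 (limma adjusted p 0.106). The part of T cells in the difference was not tested.

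Bid, which caspase 8 cuts into an activator of BAX and BAK, was lower in 4 of 5 lymphomas than in every wild-type spleen. Its log2 levels were 9.97, 9.98, 9.81 and 9.71 in wild-type and 8.87, 10.13, 9.54, 9.48 and 9.61 in lymphomas 1 to 5. Lymphoma 2 was the exception, above all wild-type spleens, and lymphoma 1 was the lowest. The difference was -0.34 with a 95% interval of -0.81 to 0.13 (limma adjusted p 0.492). It was -0.18 without lymphoma 1 and -0.33 without lymphomas 1 and 2 (limma adjusted p 0.102, the lowest of any member under the alternatives tried). All 3 Bid probe sets differed in the same direction, by -0.38 to -0.039.

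Bcl2l11 and Bad did not separate the groups. Bcl2l11 had log2 levels of 11.58, 11.49, 11.95 and 12.05 in wild-type and 12.12, 11.83, 11.70, 11.29 and 12.16 in lymphomas 1 to 5. Its difference was 0.054, with a 95% interval of -0.38 to 0.49 and a limma adjusted p of 0.924. Its 5 probe sets disagreed in direction, from -0.22 to 0.054, and the second brightest stood at -0.22 (limma adjusted p 0.395 over all probe sets). On that probe set 4 of 5 lymphomas lay below every wild-type spleen and 1 above. BIM has several known splice forms, and the form behind each probe set is not known here. Bad, whose protein survival kinases switch off by phosphorylation, ranged from 8.95 to 9.17 in wild-type and from 8.91 to 9.28 in lymphoma. Its difference was 0.0029 with a 95% interval of -0.19 to 0.20 (limma adjusted p 0.991). The dimmer Bad probe set stood at 0.14 (limma adjusted p 0.592 over all probe sets), with 3 of 5 lymphomas above every wild-type spleen and 1 below.

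Bak1 was the only effector among the members measured here. Its log2 levels were 7.29, 7.06, 7.26 and 7.03 in wild-type and 7.74, 7.67, 7.13, 6.86 and 7.23 in lymphomas 1 to 5. Lymphomas 1 and 2 again stood above all other arrays, and lymphoma 4 was the lowest. The difference was 0.17 with a 95% interval of -0.23 to 0.57 (limma adjusted p 0.705), and it turned to -0.083 without lymphomas 1 and 2. The 6 markers of dividing cells, such as Mki67 and Top2a, had mean levels of 10.91 and 10.75 in lymphomas 1 and 2, 7.80 in lymphoma 4, 9.13 and 9.14 in lymphomas 3 and 5, and 8.89 to 9.51 in wild-type.

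**Figure D2:**
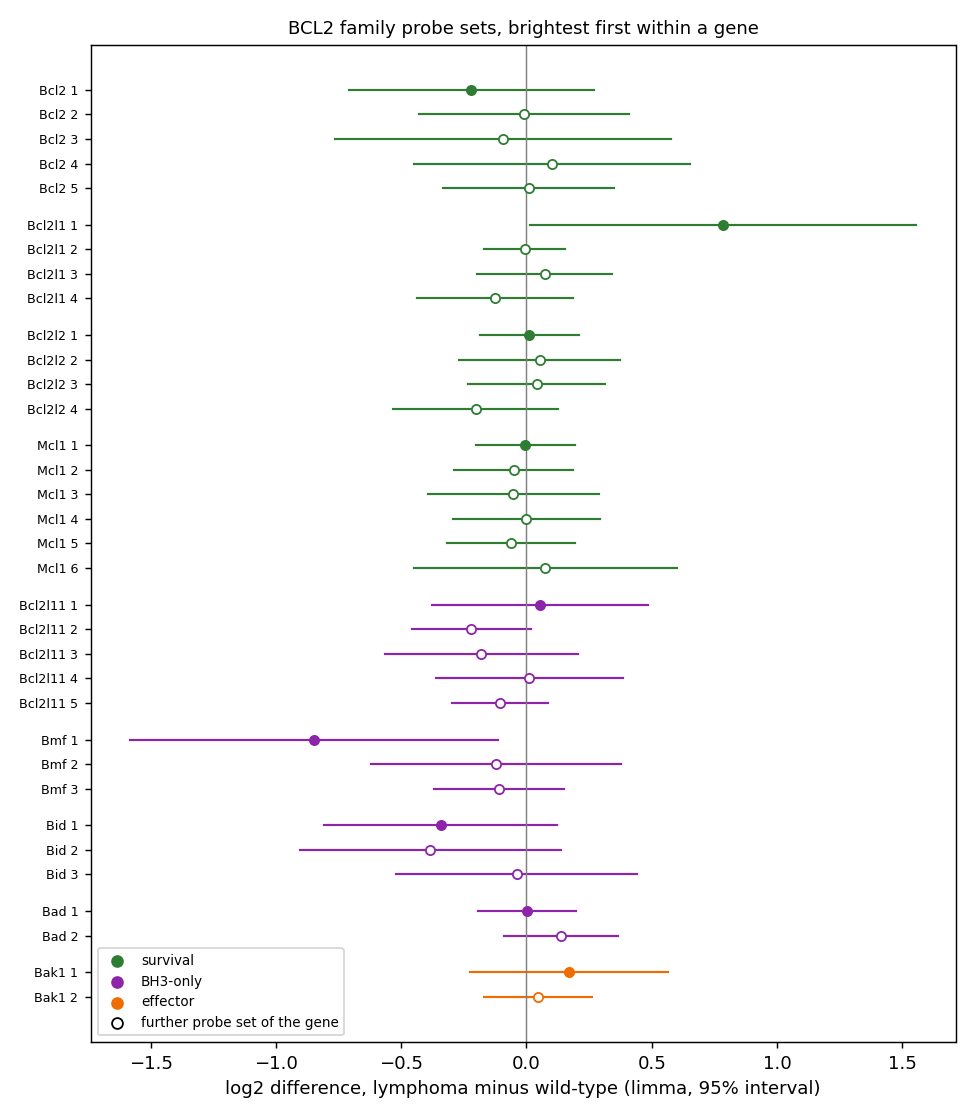
Log2 difference of lymphoma minus wild-type (x axis) for all 34 probe sets of the members, with 95% limma intervals, numbered within a gene from bright to dim. Filled points stand for the gene and open points are its further probe sets. Only the intervals of the first Bcl2l1 and the first Bmf probe set leave out 0, before any adjustment.

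By probe set, limma called 0 of the 34 probe sets, against 0.486% of all 45037, and 2 (those of Bcl2l1 and Bmf above) had an unadjusted p under 0.05, against 13.9% of all. The unequal-variance test had 0 of the 34 at an unadjusted p under 0.05, against 12.1% of all. The groups did not overlap for 0 of the 34, against 6.47% of all probe sets, and for 0 of the 9 genes, against 7.33% of all genes. Of the 34 differences 14 were above 0 and 20 below it, where 47.2% of all probe sets were above 0.

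Survival members were set against death members on each array as the mean log2 deviation from the wild-type mean. The 4 survival members averaged 0.22, 0.30, 0.11, 0.034 and 0.058 in lymphomas 1 to 5 and between -0.061 and 0.077 in wild-type. The 5 death members averaged -0.18, -0.23, -0.28, -0.24 and -0.043 in lymphomas 1 to 5 and between -0.013 and 0.0092 in wild-type. Survival minus death was 0.39, 0.52, 0.39, 0.28 and 0.10 in the lymphomas and -0.063 to 0.076 in wild-type, so every lymphoma exceeded every wild-type spleen. The mean difference was 0.34, and lymphoma 5 was only just above wild-type spleen 1. No p is given for it, since the members were chosen with earlier results known, and Bax is missing from the death side. Death genes of the family outside the member list are also not counted. Among them Bbc3 stood at 0.61, Bok at 0.27, Bik at 0.054, Hrk at -0.080 and Pmaip1 at -0.18. Over all 11 other family genes measured the differences ran from -0.48 to 0.61, and no balance that counts them was computed. The balance therefore depends on which members were chosen.

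The balance was also taken with members left out. Bcl2l1 and Bmf have the largest differences on their sides, so leaving out either was bound to shrink it. Without Bcl2l1 the mean difference was 0.12 and 3 of 5 lymphomas stood above all wild-type spleens, lymphoma 1 lying below them all at -0.21. Without Bmf it was 0.17, with 4 of 5 above. Without both it was -0.042, with 2 of 5 above. Taking the mean of all probe sets of each member gave 0.13, with 3 of 5 above. Leaving out any other single member gave 0.30 to 0.46. Of the lymphomas, 4 of 5 stood above all wild-type spleens without Bcl2l2 or without Bid, and 5 of 5 without any of the rest.

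**Figure D3:**
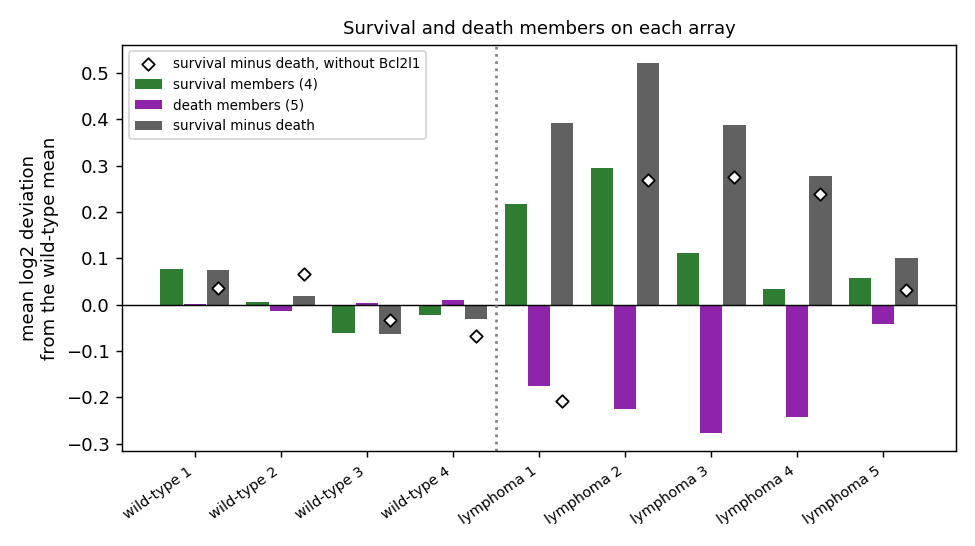
Mean log2 deviation from the wild-type mean (y axis) of the 4 survival members (green), the 5 death members (purple) and their difference (grey bars) on each of the 9 arrays. Diamonds show the difference without Bcl2l1. Survival minus death lies above all wild-type spleens in all 5 lymphomas, and without Bcl2l1 lymphoma 1 drops to -0.21.

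**Figure D4:**
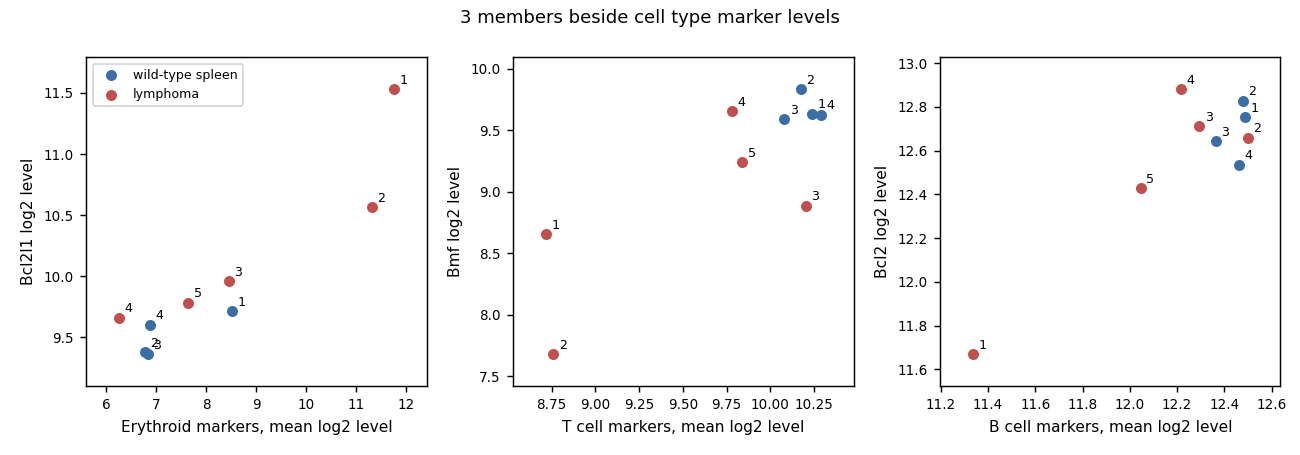
Log2 level of Bcl2l1, Bmf and Bcl2 (y axes) against the mean log2 level of the erythroid, T-cell and B-cell marker lists (x axes), with 1 point per array numbered by replicate. Lymphomas 1 and 2 lie apart in the first 2 plots and lymphoma 1 in the third, at a B-cell marker level of 11.34.

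Genes whose pattern was most like that of a member were named by the highest Pearson r across the 9 arrays, among 4216 genes with an SD of at least 0.3. For Bcl2l1 these were Gm6958 (r = 0.993), the collagen gene Col5a1 (0.989) and the histamine-making enzyme gene Hdc (0.988), or 0.938, 0.876 and 0.878 over the 7 arrays other than lymphomas 1 and 2. For Bmf they were Emid1 (r = 0.988), Limd2 (0.982) and the chromatin remodeller gene Chd2 (0.976), or 0.948, 0.898 and 0.906 over those 7. For Bak1 they were 3 genes of the dividing cell, Clspn (r = 0.989), Ect2 (0.988) and Chek1 (0.986), or 0.947, 0.949 and 0.937. The arrays share 1 normalization, and with 9 arrays and 4216 genes high values of r are easily found.

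The rest of the death pathway was read from 4 lists. Of 60 further genes listed 52 were measured, and the count called by limma was 0. Before adjustment 6 had a p under 0.05 (11.5%, against 14.7% of all genes), by the unequal-variance test also 6 (against 13.1% of all genes), and the groups did not overlap for 2 (against 7.33% of all genes). Without lymphomas 1 and 2 limma called 1 of the 52, Fasl, where it called 601 of all 18193 genes. These counts are near the shares over all genes and single out no part of the pathway.

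Among 11 of 15 other BCL2 family genes measured, 5 differences were above 0 (50.3% of all genes were) and the median was -0.030, against 0.0012 over all genes. The Bcl2a1 genes share their probe sets with each other and were not analysed here. Bbc3, which encodes the p53-induced BH3-only protein PUMA, had levels of 7.72, 7.76, 7.76 and 8.01 in wild-type and 8.36, 8.75, 7.998, 8.75 and 8.22 in lymphomas 1 to 5. All but lymphoma 3 lay above every wild-type spleen. Its difference was 0.61 with a 95% interval of 0.24 to 0.97, a limma adjusted p of 0.137 and an exact permutation p of 0.0238, and it kept to 0.52 to 0.71 with any 1 array left out. Bcl2l15 stood at 0.55 and Bcl2l12 at -0.48 (limma adjusted p 0.475 and 0.510). Bcl2l12 was at -0.25 without wild-type spleen 4. Without lymphomas 1 and 2 Bcl2l15 was at 0.14 and Bcl2l12 at -0.86 (limma adjusted p 0.0926).

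Of 17 genes of the mitochondrial death machinery 15 were measured, 9 of them with a difference below 0 and with a median of -0.078. Dffb, the nuclease that cuts DNA in dying cells, had levels of 8.92 to 9.12 in wild-type and 8.46 to 8.76 in lymphoma, with no overlap and a difference of -0.38 (limma adjusted p 0.0867). Casp2, an initiator caspase, had 11.32 to 11.43 in wild-type and 10.84 to 11.21 in lymphoma, also with no overlap, and a difference of -0.29 (limma adjusted p 0.190). Cycs, cytochrome c itself, stood at 0.32 (limma adjusted p 0.306).

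In the death receptor arm, where 9 of 10 genes were measured, the median difference was 0.052. Fasl, the ligand by which cytotoxic T and NK cells trigger the receptor FAS, had levels of 7.24, 7.26, 7.86 and 7.83 in wild-type and 7.73, 7.84, 8.37, 8.51 and 8.85 in lymphomas 1 to 5. Lymphomas 3, 4 and 5 stood above all wild-type spleens and lymphomas 1 and 2 within their range. The difference was 0.71 (limma adjusted p 0.233) over all arrays and 1.03 (limma adjusted p 0.0282) without lymphomas 1 and 2. T-cell markers had mean levels of 9.78 to 10.20 in lymphomas 3 to 5 and 10.08 to 10.29 in wild-type, and their part in the Fasl difference was not tested. Tnfsf10, the ligand TRAIL, stood at 0.26 and Casp8, the initiator caspase of this arm, at -0.18 (limma adjusted p 0.445 and 0.523). Tnfsf10 was at 0.16 without lymphoma 3, and Casp8 at -0.093 without lymphoma 1 and -0.043 without lymphomas 1 and 2.

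Among regulators of the family 17 of 18 were measured, with a median difference of 0.066. Pim1, a kinase that phosphorylates BAD, stood at 0.53, with 11.70, 11.09, 10.91, 10.14 and 10.90 in lymphomas 1 to 5 and 10.35 to 10.50 in wild-type (limma adjusted p 0.367). All lymphomas but lymphoma 4 lay above every wild-type spleen, and the difference was 0.34 without lymphoma 1 and 0.23 without lymphomas 1 and 2. Foxo1, a transcription factor that can drive Bcl2l11, stood at -0.49, with lymphomas 1 and 2 at 11.04 and 11.01 and the other lymphomas between 11.95 and 12.22, against 12.08 to 12.20 in wild-type (limma adjusted p 0.420). Without lymphomas 1 and 2 it was at -0.077. Stat5b stood at -0.33 and Bag1, a partner of BCL2 that was named after its values were seen, at 0.33 (limma adjusted p 0.358 and 0.201). Stat5b was at -0.21 without lymphoma 2 and -0.12 without lymphomas 1 and 2.

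**Figure D5:**
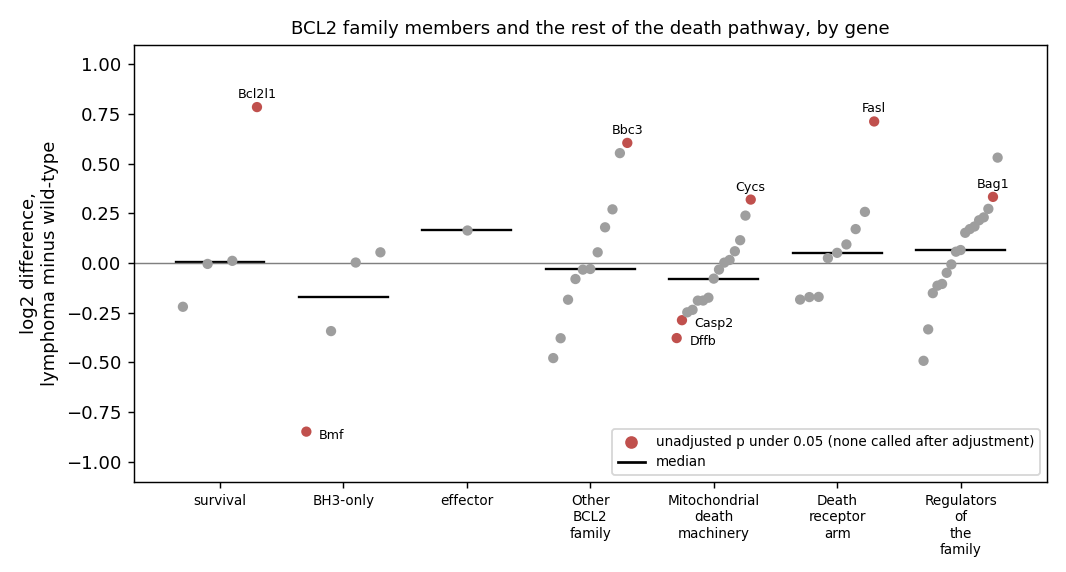
Log2 difference of lymphoma minus wild-type (y axis) for each measured gene of the 3 member roles and the 4 pathway lists (x axis), with a line at each list's median. Red points had an unadjusted limma p under 0.05, and none was called after adjustment. Bcl2l1 at 0.79 and Bmf at -0.85 are the outermost points.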

How the data were processed

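Total RNA of whole frozen tissue was labelled with biotin and hybridised to 1-colour Affymetrix arrays, as the labels' protocols state. Per the submitters' processing notes the authors used RMA, which yields log2 intensities summarised per probe set. For its version and settings nothing was found (not given in the sources used here). The values were not renormalized: the array medians lay between 6.88 and 6.97. Of 45101 probe sets 64 controls were left out. Names came from the platform annotation (34958 probe sets with 1 symbol, 932 with several, 9211 with none), and the probe set with the highest mean stood for each of the 18193 genes. Limma 3.58.1 in R 4.3.3 (lmFit, eBayes, two-sided) was fitted over all genes and, separately, over all probe sets, with Benjamini-Hochberg adjustment over the whole table and a threshold of 0.05. Values for further probe sets come from the second fit. All differences are lymphoma minus wild-type, and intervals are unadjusted. Single values were also tested by exact permutation over samples. The members, lists and rule for named genes (in each pathway list the called genes, or else the 3 with the largest difference) were chosen with earlier results of these data known. The scripts were tested on simulated data, and matplotlib 3.10.9 drew the figures. The alternatives were 22 settings of filter, normalization, variance prior, weights, test, block, probe set choice, covariate and samples left out.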

Additional observations from a re-analysis of the deposited data

Results flagged for a closer look

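Lymphoma 2 had an Mcl1 log2 level of 14.09, apart from the other 4 lymphomas at 13.71 to 13.80, and it was also the highest array on the other 5 Mcl1 probe sets. Wild-type spleen 4 had a Bbc3 level of 8.01, apart from the other wild-type spleens at 7.72 to 7.76. The same spleen had a Bcl2l12 level of 9.03, against 8.10 to 8.14 in the other 3. These 3 values were the samples far from the rest of their group among 46 groups of values examined, where chance gives about 1 in 20.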

How the results depend on the processing

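Limma, or the unequal-variance test in its place, called 0 of the 9 members in all 22 alternatives, with a lowest adjusted p of 0.102, while calls over all genes moved widely. In place of 130 genes and 219 probe sets, limma called 532 and 821 with array weights, 391 and 690 with the dividing-cell score, and 601 and 935 without lymphomas 1 and 2. The erythroid score gave 132 probe sets. The unequal-variance test called 0 and 0. With 1 array left out the calls ranged from 10 genes (without wild-type spleen 2) to 328 (without lymphoma 2) and from 0 probe sets (without wild-type spleen 2 or 3) to 530 (without lymphoma 2). The survival minus death balance was 0.13 with the mean of all probe sets and 0.18 when probe sets with _s_ or _x_ in the ID were dropped, and 0.29 to 0.39 with 1 array left out. Bcl2l1, Bmf and Bid kept their direction in all 22 alternatives, and over all members 28 of 198 alternative differences changed sign. The filter on dim probe sets, the variance prior settings and the unequal-variance test left every member difference as it was. Those settings could not change a sign, so these counts overstate how far direction was tried. Bcl2 turned to 0.0078 with the erythroid score. Bak1 turned to -0.11 with that score and -0.083 without lymphomas 1 and 2. Bad turned to -0.058 with the erythroid score, -0.017 with the dividing-cell score, -0.044 with array weights and -0.066 without lymphomas 1 and 2. Bcl2l11 turned to -0.070 with the erythroid score, -0.0085 with the dividing-cell score, -0.088 with the mean of all probe sets and -0.049 without lymphomas 1 and 2, and Bcl2l2 to -0.024 with the mean of all probe sets. With 1 array left out, Mcl1 ranged from -0.070 to 0.025, Bcl2l11 from -0.038 to 0.19, Bad from -0.045 to 0.047 and Bcl2l2 from -0.053 to 0.046. The causes were not tested. The labels tie same-numbered samples by nothing but the number. Their deviations correlated by 0.099, -0.19, 0.15 and -0.038, and 1 of 4 wild-type spleens correlated best with its own number. With 4 pairs these values cannot settle whether a number marks a shared batch. With the replicate number as a block limma called 7 genes and 5 probe sets, and Bcl2l2 was -0.053, Mcl1 0.0059 and Bcl2l11 -0.031. Only the lymphomas have a number 5, so this block takes lymphoma 5 out of the comparison. The member differences under it equal those without lymphoma 5. Dim probe sets near the background limit what RMA values can show.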
